A study of Mus musculus with 8 samples.

Results

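Polycomb repressive complexes are the subject here, through 10 of the genes that encode them: Ezh1, Ezh2, Eed, Suz12 and Jarid2 of Polycomb repressive complex 2 (PRC2), Bmi1, Rnf2, Ring1 and Cbx7 of Polycomb repressive complex 1 (PRC1), and Kdm2b of a variant PRC1. The genes were taken by name, not by any measured value, from the 20807 autosomal protein-coding genes of the GENCODE M21 annotation of the mouse genome (GRCm38, also called mm10). For each gene, the 5-hydroxymethylcytosine (5-hmC) peaks were counted over a window of the gene body with 5 kb on each side. The 10 windows together spanned 690995 bp and held 8999 CpGs.

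The peaks came from hMeDIP-seq, in which sonicated genomic DNA is pulled down with an antibody to 5-hmC and sequenced. The cells were progenitor B (pro-B) cells of C57BL/6 mice aged 4 to 6 weeks, sorted from bone marrow as B220+CD43+IgM-, with 2 wild-type libraries and 2 HDAC7-deficient libraries. The wild-type label covers Hdac7+/- littermates in the study's text, so by that account both groups carry 1 null allele. The HDAC7-deficient label stands for Hdac7 fl/- mice, in which mb1-Cre, inserted at the Cd79a gene, deletes the floxed allele in the B lineage. No source used here says whether a library came from 1 mouse or from pooled mice, so the spread between libraries may be partly technical.

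Each library was given as a list of peak positions with no height and no read depth, so a value here is where a peak was called, and not how much 5-hmC a base carried. Peaks numbered 1305200 and 1409143 in wild-type cells and 1414862 and 1371221 in HDAC7-deficient cells. An exact permutation test of 2 libraries against 2 has 0.333 as its smallest two-sided p, and for that reason none of the genotype differences given here can reach significance. The lists hold positions in DNA, so the sorted cell type could not be checked through its marker genes.

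PRC2 places methyl groups on lysine 27 of histone H3 through its catalytic subunits Ezh2 or Ezh1, and needs Eed and Suz12 for activity, while Jarid2 is an accessory subunit that helps to bring the complex to chromatin. PRC1 places ubiquitin on histone H2A through Rnf2 (Ring1B) or Ring1 (Ring1A) paired with a Pcgf protein such as Bmi1, and Cbx7 reads the methylated lysine. Kdm2b carries a CxxC domain that binds unmethylated CpG islands and brings a variant PRC1 to them. 5-hmC is made by TET enzymes from 5-methylcytosine, which in most mammalian cells lies at CpGs. In B-cell development, Ezh2 and Bmi1 are known for their part in the growth of early progenitors and in immunoglobulin gene rearrangement.

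The sequences that all 4 libraries shared are shown first, because the same bases were called in every library and they do not depend on a comparison. Peaks of all 4 libraries lay over the same bases at 71 stretches in the 10 windows, 7475 bp in all or 1.08% of the windows. Of these stretches, 51 lay in introns of the principal transcript, 8 upstream and 4 downstream of the gene, 3 in exons and 5 outside the principal transcript. The widest of each gene was between 147 bp (Ezh1) and 351 bp (Jarid2). The sequences below run 5′ to 3′ on the strand of the gene, are read from GRCm38, and carry each CpG in capitals, so a sequence without capitals holds no CpG. The first 4 are the widest shared stretches of 4 genes, from Ezh2 (chr6:47527824-47528095, minus strand, 272 bp, in the 5 kb downstream of the gene), Eed (chr7:89959137-89959401, minus strand, 265 bp, intron 9), Bmi1 (chr2:18679692-18679843, plus strand, 152 bp, intron 1) and Rnf2 (chr1:151481272-151481479, minus strand, 208 bp, intron 1). The other 2 are shared stretches with several CpGs, from Eed (chr7:89979900-89980011, minus strand, 112 bp, intron 1) and Suz12 (chr11:79992343-79992494, plus strand, 152 bp, upstream of the gene).
Ezh2 downstream: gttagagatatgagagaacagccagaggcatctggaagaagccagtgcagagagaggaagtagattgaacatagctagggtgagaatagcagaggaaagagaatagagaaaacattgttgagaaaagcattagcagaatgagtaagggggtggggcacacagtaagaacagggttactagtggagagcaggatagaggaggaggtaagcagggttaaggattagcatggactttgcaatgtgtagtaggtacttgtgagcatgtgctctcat
Eed intron 9: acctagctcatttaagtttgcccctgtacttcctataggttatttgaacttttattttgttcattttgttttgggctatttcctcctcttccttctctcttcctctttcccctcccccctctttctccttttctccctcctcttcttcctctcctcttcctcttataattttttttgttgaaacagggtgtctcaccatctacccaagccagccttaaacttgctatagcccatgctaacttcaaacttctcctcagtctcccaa
Bmi1 intron 1: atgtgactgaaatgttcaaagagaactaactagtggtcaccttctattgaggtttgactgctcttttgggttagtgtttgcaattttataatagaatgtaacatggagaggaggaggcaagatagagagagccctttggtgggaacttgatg
Rnf2 intron 1: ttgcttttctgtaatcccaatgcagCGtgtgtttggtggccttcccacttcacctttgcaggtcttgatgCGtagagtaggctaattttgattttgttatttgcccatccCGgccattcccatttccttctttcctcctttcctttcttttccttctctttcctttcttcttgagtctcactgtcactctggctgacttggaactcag
Eed intron 1: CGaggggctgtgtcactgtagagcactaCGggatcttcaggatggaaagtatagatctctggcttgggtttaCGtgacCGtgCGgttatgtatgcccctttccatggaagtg
Suz12 upstream: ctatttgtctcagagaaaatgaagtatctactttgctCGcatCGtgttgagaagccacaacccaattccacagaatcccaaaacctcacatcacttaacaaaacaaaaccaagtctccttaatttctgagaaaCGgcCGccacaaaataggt

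Pooled over the members, the shared stretches held no more CpGs than bases without a peak, and several were rich in either purines or pyrimidines on 1 strand. Bases under peaks of all 4 libraries held 1.18 CpGs per 100 bp over the members. Bases under no peak held 1.26, and bases under a peak of 1 library held 1.48. By gene the direction differed, with 1.37 under peaks of all 4 libraries against 0.918 under no peak in Jarid2, and 0 against 4.03 in Bmi1. Of the 71 stretches, 32 held no CpG, and of the 32 that were at least 100 bp wide, 8 held none. A lack of CpGs was as common without a peak. Of tiles of 100 bp in the members' windows, 45.3% of those under no peak held no CpG, against 41.7% of those under peaks of all 4 libraries. The widest stretch held no CpG in Ezh1, Ezh2, Eed and Bmi1. With 150 bp added on each side, the Bmi1 stretch still held 0 CpGs, the Ezh2 and Eed stretches 1 each and the Ezh1 stretch 2. On the strand of the gene, purines made up 70.2% of the Ezh2 stretch and 68.9% of the widest Ring1 stretch (312 bp, 6 CpGs), and 24.5% of the Eed stretch and 29.3% of the Rnf2 stretch. In the Bmi1 stretch the purine share was 57.2%. Bases soft-masked as repeats in the genome sequence made up 57.4% of the Eed, 57.1% of the Ring1 and 49.0% of the Rnf2 stretch. They made up 11.8% of the Ezh2 stretch and 0% of the Bmi1 stretch.

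The same composition was measured in the 100-bp tiles of the windows that were under no peak or wholly under a peak of at least 1 library. Among tiles with no peak in any library, 1.27% of the members' 4577 tiles and 1.501% of the tiles of other genes were made up of at least 70% purines or at least 70% pyrimidines. Among tiles wholly under peaks of all 4 libraries, the share was 37.5% of the members' 24 tiles and 37.4% of the 47797 tiles of other genes. The members and the other genes were thus alike at both ends, while under peaks of 3 libraries the share was 14.3% of the members' 77 tiles against 29.8% in other genes. CpGs went from 1.21 per tile without a peak to 1.44 in tiles under a peak of 1 library and 0.958 in tiles under peaks of all 4 in the members, and from 0.980 to 1.07 and 0.870 in other genes. Tiles share libraries and neighbours, so these shares are given as a description with no test. Whether purine-rich and pyrimidine-rich DNA affects where peaks are called was not tested, and the input libraries were not analysed here.

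**Figure D1:**
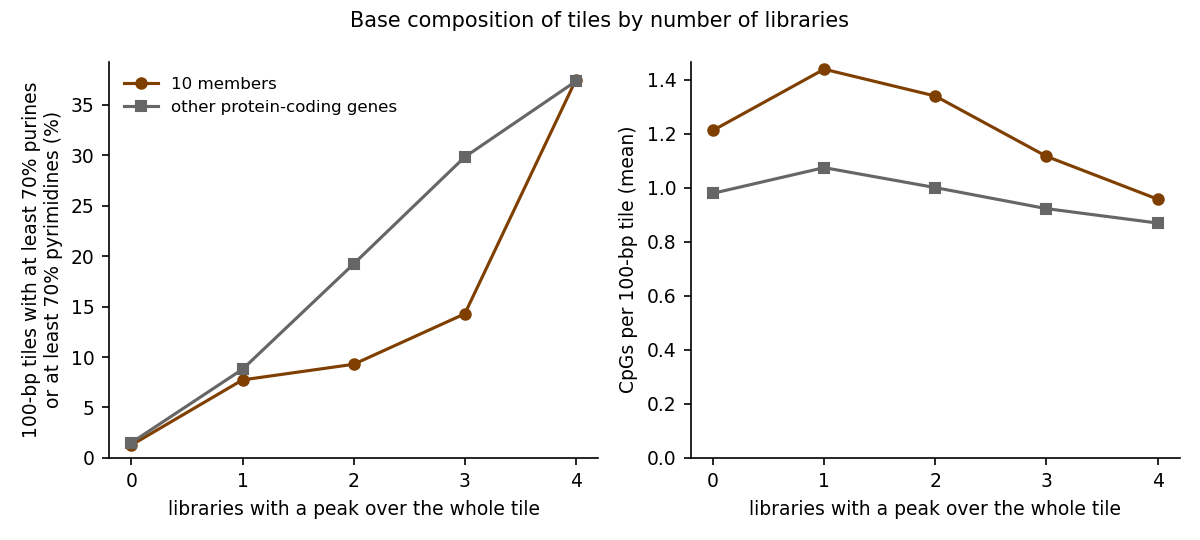
The left panel plots the share of 100-bp tiles (%) made up of at least 70% purines or at least 70% pyrimidines, and the right panel the mean number of CpGs per tile, against the number of libraries whose peaks covered the whole tile, for the 10 members (circles) and for all other autosomal protein-coding genes (squares). The skewed share reached 37.5% in members and 37.4% in other genes at 4 libraries, while CpGs per tile fell to 0.958 and 0.870. The member point at 4 libraries rests on 24 tiles.

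Peaks covered the 10 genes to about the same extent as other genes. Summed over the members, peaks covered 8.86% and 10.6% of the windows in wild-type cells and 9.12% and 9.53% in HDAC7-deficient cells. Over all autosomal protein-coding genes the same shares were 9.52%, 10.8%, 9.34% and 10.5%. The members were below all genes in every library, by less than the spread between the 2 wild-type libraries. When each gene was set beside other genes whose length was within 25% of its own, 2 of 10 members lay above the median of those genes, Cbx7 at percentile 86.8 and Ring1 at percentile 60.5. Suz12 lay lowest, at percentile 16.9 of 2505 genes. The count of 2 rose to 5 with flanks of 0 or 2000 bp and to 4 without wild-type replicate 1.

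The standing of the members depended on what was counted. By peaks per 10 kb, 5 of 10 lay above the median of genes of like length, with Cbx7 at percentile 96.0 and Ezh1 at percentile 79.0. By the share of CpGs under peaks, 8 of 10 did, with Eed at percentile 85.1, Cbx7 at 83.3 and Ezh2 at 81.4. Bmi1 was lowest by CpGs, at percentile 6.43: its window had 35.7 CpGs per kb, the most of the 10 genes, and on average 3.93% of them lay under a peak. Exons of the members were covered at 10.2% ± 0.553 (SD over the 4 libraries) against 8.54% ± 0.929 in other genes, and introns at 9.66% ± 0.957 against 10.1% ± 0.731. The 5 kb upstream were covered at 8.19% ± 0.958 in the members and 10.7% ± 0.576 in other genes.

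**Figure D2:**
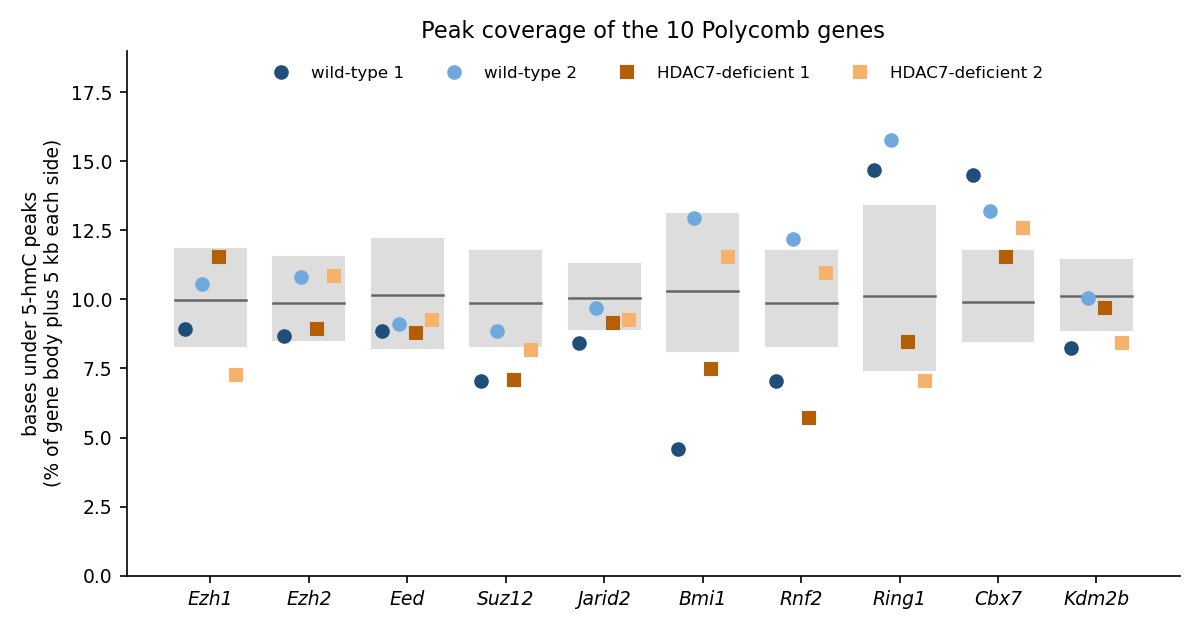
Each point gives the bases under 5-hmC peaks in 1 library, in percent of the gene body plus 5 kb on each side, with wild-type libraries as circles and HDAC7-deficient libraries as squares. Grey boxes span the 25th to 75th percentile, and the line the median, of protein-coding genes of like length, averaged over the 4 libraries. Ring1 and Cbx7 are the genes whose 2 wild-type points lie above both HDAC7-deficient points, and Bmi1, Rnf2 and Ezh1 have points of 1 genotype far apart.

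The catalytic genes of PRC2 carried peaks in every library, and their genotypes overlapped in peak counts and peak bases. Ezh2 (chr6:47530139-47595341, minus strand), the main H3K27 methyltransferase of dividing cells, held 35 and 45 peaks in wild-type cells and 44 and 47 in HDAC7-deficient cells. These peaks spanned 6522 and 8136 bp against 6702 and 8149 bp, so that the second library of each genotype was the high one and the groups overlapped. Ezh2 had 13 regions with a peak in every library among its 88 peak regions, a share of 14.8% and the highest of the 10 genes, where a region is a run of bases under the joined peaks of any library. Its CpGs under peaks numbered 80 and 83 against 74 and 54, lower in both HDAC7-deficient libraries, as for 17.7% of other genes.

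Ezh1 (chr11:101191115-101226463, minus strand), the paralog of Ezh2 that prevails in resting cells, held 36 and 28 peaks in wild-type cells and 32 and 29 in HDAC7-deficient cells. Its peak bases were 4043 and 4785 against 5234 and 3300, with the highest and the lowest value in the 2 HDAC7-deficient libraries. The ratio of the HDAC7-deficient to the wild-type mean was 0.967 ± 0.330 (SD propagated from 2 libraries per genotype; exact permutation test p = 1) for Ezh1 and 1.01 ± 0.211 (p = 0.667) for Ezh2. Shared bases were few in Ezh1, at 198 bp in 3 stretches, against 1655 bp in 14 stretches in Ezh2.

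Eed (chr7:89954654-89980983, minus strand), the subunit that binds the methylated histone, was the most even gene in covered bases. Its peaks covered 3216 and 3314 bp in wild-type cells and 3196 and 3367 bp in HDAC7-deficient cells, although their number went from 12 to 19. The ratio was 1.01 ± 0.0427 (exact permutation test p = 1, n = 2 per genotype). Even totals did not mean the same bases: the bases under peaks of both wild-type libraries were 0.355 of those under a peak of either, and for both HDAC7-deficient libraries the fraction was 0.208.

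Suz12 (chr11:79993106-80034123, plus strand), which holds the complex together, had 18 and 31 peaks over 3589 and 4514 bp in wild-type cells and 28 and 20 peaks over 3622 and 4165 bp in HDAC7-deficient cells. Both HDAC7-deficient values lay between the wild-type ones. Jarid2 (chr13:44729474-44921643, plus strand), the longest of the genes at 192170 bp, had 120 and 101 peaks over 17049 and 19585 bp against 132 and 106 peaks over 18526 and 18710 bp, and again the HDAC7-deficient bases lay inside the wild-type range. The ratios were 0.961 ± 0.182 for Suz12 and 1.02 ± 0.0998 for Jarid2 (exact permutation test p = 1 for each, n = 2 per genotype). Summed over the 5 PRC2 genes the ratio of peak bases was 1.00 ± 0.112 (exact permutation test p = 1).

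Of the H2A ubiquitin ligase subunits, Ring1 was covered less in both HDAC7-deficient libraries, while the genotypes overlapped at Rnf2. Rnf2 (chr1:151458004-151500955, minus strand) had 27 and 31 peaks over 3722 and 6446 bp in wild-type cells and 21 and 37 peaks over 3016 and 5794 bp in HDAC7-deficient cells. Its second library was high in both genotypes, the groups overlapped, and the ratio was 0.866 ± 0.507 (exact permutation test p = 0.667, n = 2 per genotype). Ring1 (chr17:34020792-34024680, minus strand), the shortest of the genes at 3889 bp, had 8 and 11 peaks over 2038 and 2189 bp in wild-type cells and 7 and 6 peaks over 1175 and 981 bp in HDAC7-deficient cells. Both HDAC7-deficient libraries were low, by 863 bp or 6.21 percentage points of the window at the nearest pair, and the ratio was 0.510 ± 0.0698 (exact permutation test p = 0.333, the smallest that this design can give).

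The lower coverage around Ring1 lay outside the gene body. Within the body the peak bases were 859 and 268 bp in wild-type cells and 426 and 521 bp in HDAC7-deficient cells, which overlapped. In the 5 kb downstream they were 704 and 1202 bp against 321 and 460 bp. In the 5 kb upstream, which also holds the genes H2-Ke6 and Slc39a7, peaks covered 9.50% and 14.4% against 8.56% and 0%. With no flank, Ring1 was not lower in both HDAC7-deficient libraries.

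Within 100 kb on each side of the Ring1 window, peaks covered 15.9% and 15.4% in wild-type cells and 13.2% and 16.3% in HDAC7-deficient cells. The surroundings thus overlapped between genotypes, through the second HDAC7-deficient library alone. All of chromosome 17 was raised in that library. Its peak bases stood at 1.19 times the density of chromosomes 1 to 13, against 1.03 in the first HDAC7-deficient library and 1.04 and 1.01 in wild-type cells. The shares around Ring1 were not corrected for this rise, so whether the lower coverage was confined to the window was not tested. Among the 1621 other genes of like length, 0.185% were lower in both HDAC7-deficient libraries with a gap at least as wide in percent of the window, and 0.185% were higher by such a gap. This figure describes a gene picked for the widest gap of the 10 and is no test.

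**Figure D3:**
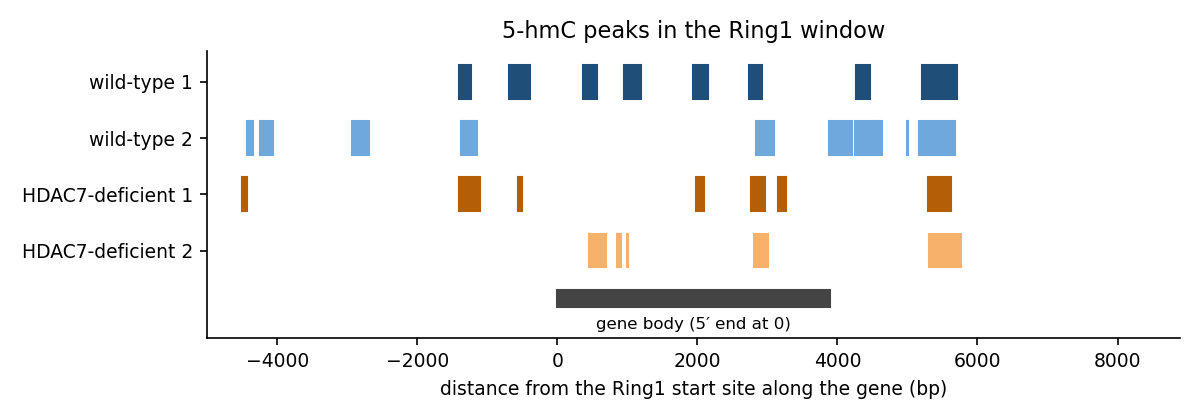
Bars mark the 5-hmC peaks of each library over the Ring1 window, against the distance in bp from the Ring1 start site along the gene, with the gene body of 3889 bp in dark grey. A peak beyond 4 kb, just past the end of the gene, is present in both wild-type libraries and absent from both HDAC7-deficient ones. Further peaks beside it are present in the second wild-type library only. A peak near 5.4 kb and 1 near 2.9 kb are present in all 4 libraries.

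In the Ring1 window, 1 region was present in both wild-type libraries and in neither HDAC7-deficient library. It lay downstream of the gene (chr17:34020102-34020428), with 209 and 327 bp under wild-type peaks and 0 bp under HDAC7-deficient peaks. The 209 bp under both wild-type peaks (chr17:34020214-34020422, minus strand) held 3 CpGs, in capitals, and are shown because they lie in the single Ring1 region lost in both HDAC7-deficient libraries, which holds a minor share of the bases by which Ring1 was lower. For contrast, the only Ezh2 region with the opposite pattern lay in intron 1, where peaks covered 276 and 414 bp in the HDAC7-deficient libraries and 0 bp in both wild-type libraries. Its 276 shared bases (chr6:47588585-47588860, minus strand) held 1 CpG and a long pyrimidine repeat. Both run 5′ to 3′ on the strand of the gene.
Ring1 downstream, lost: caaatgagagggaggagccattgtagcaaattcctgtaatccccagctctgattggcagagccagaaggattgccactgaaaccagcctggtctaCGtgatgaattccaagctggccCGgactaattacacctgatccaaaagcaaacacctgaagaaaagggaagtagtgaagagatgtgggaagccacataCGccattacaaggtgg
Ezh2 intron 1, gained: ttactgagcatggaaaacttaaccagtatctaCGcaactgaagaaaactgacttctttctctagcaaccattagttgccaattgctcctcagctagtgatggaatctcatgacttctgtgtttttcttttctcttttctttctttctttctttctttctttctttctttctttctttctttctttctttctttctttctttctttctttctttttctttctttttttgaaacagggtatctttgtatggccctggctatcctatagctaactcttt

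Bmi1 (chr2:18677018-18686629, plus strand), a Pcgf partner of the ligases, was the most uneven gene between libraries of 1 genotype. It had 8 and 13 peaks over 896 and 2539 bp in wild-type cells and 11 and 13 peaks over 1465 and 2264 bp in HDAC7-deficient cells. The first wild-type library was low, and the ratio of 1.09 ± 0.805 (exact permutation test p = 1, n = 2 per genotype) could not separate the genotypes.

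Cbx7 (chr15:79915807-79971119, minus strand), the chromodomain reader of PRC1, was the most densely covered of the 10 genes by the mean of the 4 libraries, while Ring1 was covered more in both wild-type libraries. It had 63 and 54 peaks over 9469 and 8610 bp in wild-type cells and 53 and 48 peaks over 7541 and 8227 bp in HDAC7-deficient cells. Both HDAC7-deficient values were lower in peaks and in bases, by 383 bp at the nearest pair, and the ratio was 0.872 ± 0.0795 (exact permutation test p = 0.333, n = 2 per genotype). This gap was smaller than the difference between replicates, 859 bp in wild-type and 686 bp in HDAC7-deficient cells. Among the 2150 other genes of like length, 10.8% were lower by at least as wide a gap in percent of the window, and 5.16% were higher. In the gene body the bases were 7553 and 7005 bp against 5989 and 6751 bp, lower in both HDAC7-deficient libraries. Bases were also lower downstream, with 1076 and 537 bp against 100 and 212 bp, and higher upstream, with 16.8% and 21.4% of the 5 kb covered against 29.0% and 25.3%. The downstream flank also holds part of Apobec3, and the principal transcript of Cbx7 starts 38480 bp inside the gene as annotated. The 100 kb on each side were covered at 14.04% and 11.9% against 11.6% and 12.5%.

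Kdm2b (chr5:122870665-122989823, minus strand), the CpG-island binding demethylase, had 84 and 75 peaks over 10655 and 12976 bp in wild-type cells and 90 and 64 peaks over 12515 and 10883 bp in HDAC7-deficient cells. The groups overlapped and the ratio was 0.990 ± 0.169 (exact permutation test p = 1, n = 2 per genotype). Summed over Bmi1, Rnf2, Ring1 and Cbx7, the ratio of peak bases was 0.848 ± 0.202 (exact permutation test p = 0.667). Over all 10 genes, peaks numbered 412 and 408 in wild-type cells and 436 and 382 in HDAC7-deficient cells, over 61199 and 73094 bp against 62992 and 65840 bp. The ratios were 0.959 ± 0.124 for bases and 0.998 ± 0.0934 for counts (exact permutation test p = 1 for each).

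Counted over the list, 2 of 10 members, Ring1 and Cbx7, had fewer peak bases in each HDAC7-deficient library than in either wild-type library, where 17.7% of the 20797 other genes did, and 0 members had more, where 10.2% of other genes did. By peak counts the same 2 genes were lower, against 11.2% of other genes, and 0 were higher, against 12.1%. By CpGs under peaks the lower pair was Ezh2 and Ring1, against 17.7% of other genes, and Cbx7 overlapped, while 0 were higher, against 9.56%. After division by the bases of each library over all autosomal protein-coding genes, 1 member, Ring1, was lower, against 16.1% of other genes, and 0 were higher, against 14.4%. A count of 2 of 10 is near these shares, and so is no result about the list as a whole.

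Most peak regions in the members held a peak of a single library. The 10 windows held 853 regions, of which 502 (58.9%) had a peak in 1 library and 72 (8.44%) in all 4, against 54.3% and 11.9% in the windows of other genes. Regions with a peak in both HDAC7-deficient libraries and in neither wild-type library numbered 33 (3.87%), against 2.82% in other genes. The opposite pattern was seen at 22 regions (2.58%), against 2.51%. Of the 33 gained regions, 15 lay in Jarid2 and 7 in Kdm2b, the 2 longest genes. They made up 6.28% of the regions of Jarid2 and 4.14% of those of Kdm2b, and by gene the share went down to 0% in Eed and Ring1. Regions that appeared only in both first libraries, 1 of each genotype, numbered 45 (5.28%), against 4.45% in other genes, and those only in both second libraries numbered 19 (2.23%), against 3.20%. The 2 patterns that follow genotype thus lay between the 2 that follow the replicate number.

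Overlap between libraries did not follow genotype either. The bases under peaks of both libraries, as a fraction of those under a peak of either, were 0.188 for the 2 wild-type libraries and 0.227 for the 2 HDAC7-deficient libraries. Across genotypes the fraction ran from 0.194 to 0.267, highest for the first library of each. In the windows of other genes the same pair was the highest, at 0.320, and the 2 wild-type libraries were at 0.224.

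Along the gene, the members departed from other genes at a few places. Over the 10 members, coverage was highest in the third decile of the body, at 16.1% against 10.7% in other genes, with values of 18.6% and 16.6% in wild-type cells and 11.2% and 18.0% in HDAC7-deficient cells. It was lowest between 2 and 3 kb past the end, at 3.82% against 10.6%, and all 4 libraries lay between 3.31% and 4.71% there. In that kilobase, 7 of 10 members had no peak in any library. The 2 most distant kilobases upstream had means of 5.65% and 4.88% against 10.9% and 10.8%, although the second wild-type library reached 11.5% in the farther one. With 10 genes and 20 positions, single peaks weigh heavily in each value, and no position was tested.

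**Figure D4:**
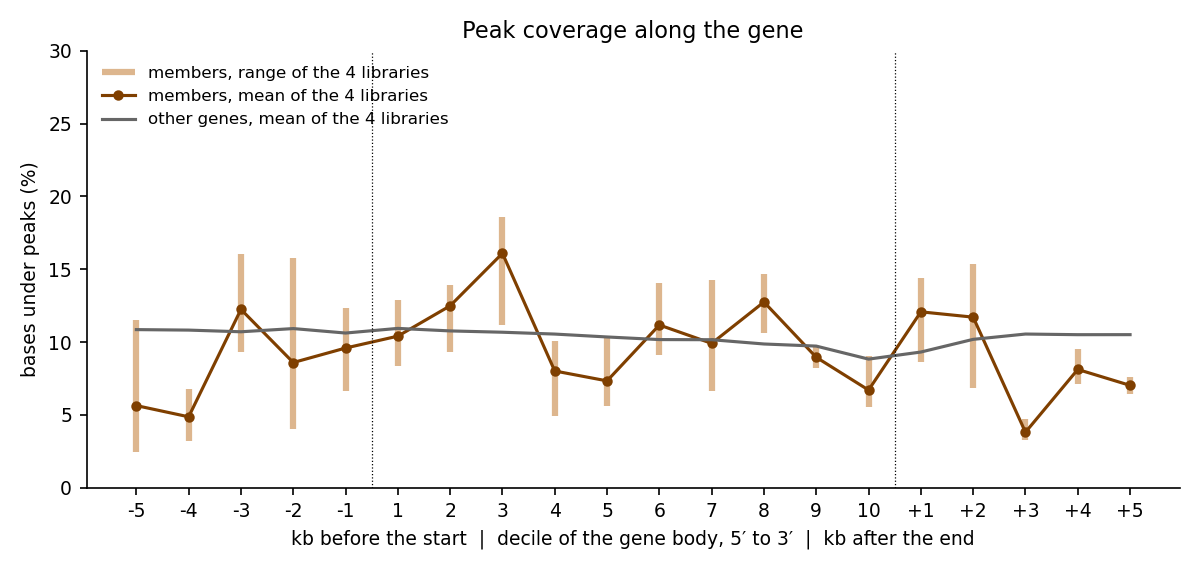
The line with circles gives the mean share of bases under peaks (%) over the 10 members and 4 libraries for each kilobase of the flanks and each decile of the gene body, and the vertical bars the range of the 4 libraries. The grey line gives other autosomal protein-coding genes at least 3889 bp long. Members rise to 16.1% in the third decile of the body and drop to 3.82% between 2 and 3 kb past the end, while other genes stay near 10%.

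At the start sites the libraries differed most. In the 1 kb around the outermost annotated 5′ end of the gene, the members held between 30 (Cbx7) and 133 (Bmi1) CpGs, where the median of other genes was 43. The first HDAC7-deficient library had a peak there in 8 of 10 members, against 52.1% of other genes, and covered 19.4% of these bases, against 10.01%. The second HDAC7-deficient library had a peak in 2 of 10, Ring1 and Cbx7, against 43.7% of other genes, and covered 2.34%, against 9.37%. The wild-type libraries had peaks in 7 and 4 members, against 48.4% and 50.5% of other genes, and covered 8.55% and 8.42%, against 9.61% and 11.3%. Both wild-type values for the members lay between the HDAC7-deficient ones.

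Several of these peaks lay on CpG-dense DNA. In the first HDAC7-deficient library, a peak of 378 bp at Ezh1 held 34 CpGs, a peak of 251 bp at Eed 37 and a peak of 229 bp at Bmi1 35. Suz12 and Bmi1 had no peak at the start site in any other library, and the Ezh2 start was under a peak of 281 bp with 24 CpGs in the second wild-type library only. Among other genes with at least as many CpGs at the start as the member with the fewest, the first HDAC7-deficient library covered 10.5% and the second 9.02%, a smaller difference than in the members. That pool begins at 30 CpGs, while the members reached 133. Genes matched to each member in CpGs at the start were not compared. At this outermost end, Cbx7 was the member with a peak in all 4 libraries, with 163 and 305 bp covered in wild-type cells and 295 and 206 bp in HDAC7-deficient cells. At the start of its principal transcript, 38480 bp away, Cbx7 had 0 bp covered in every library, while Jarid2 and Kdm2b were covered in all 4 around their own principal starts. The 2 HDAC7-deficient libraries lay on opposite sides of both wild-type libraries, so the genotypes overlapped at the start sites.

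**Figure D5:**
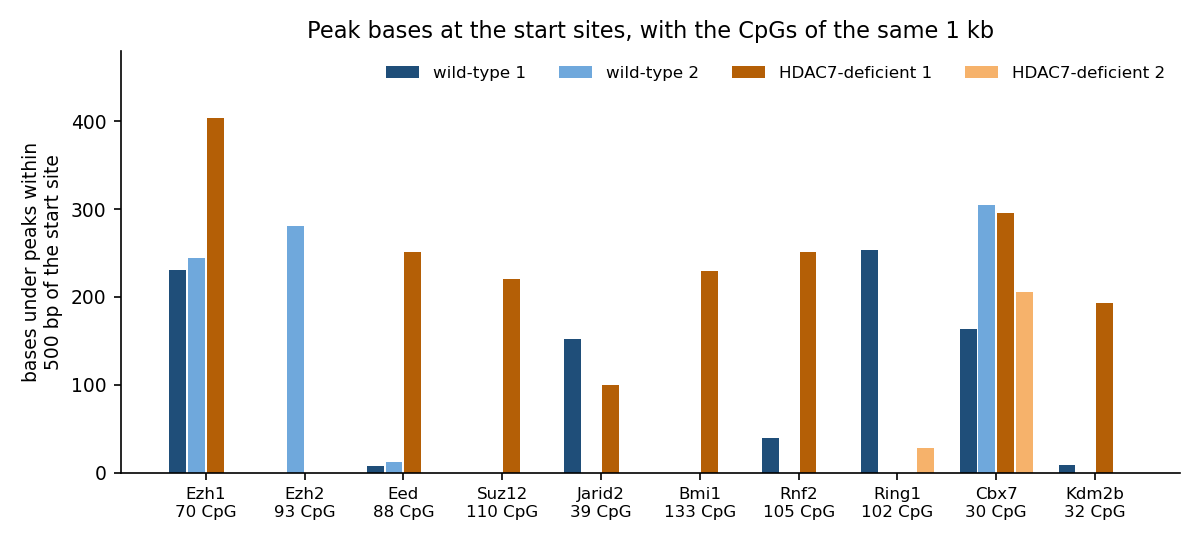
Bars give the bases under peaks within 500 bp on each side of the start site for each gene and library, with the number of CpGs in the same 1 kb under each gene name. The first HDAC7-deficient library has bars at 8 of 10 genes, while the second has them at Ring1 and Cbx7, and Cbx7 is the gene with a bar in every library at this outermost annotated end.

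The remaining genes of the 2 complexes gave no common direction. Of 24 further Polycomb genes, 21 are autosomal, and of these 5 had more peak bases in both HDAC7-deficient libraries (Cbx6, Phc2, Rybp, L3mbtl2 and Aebp2), 2 had fewer (Pcgf3 and Phf1) and 14 overlapped, where 10.2% and 17.7% of other genes were higher and lower. The widest gap was that of Pcgf3, a Pcgf subunit of variant PRC1, at 9.78% and 9.93% of its window in wild-type cells and 7.80% and 8.30% in HDAC7-deficient cells. Phc2, a Polyhomeotic subunit of PRC1, had the widest gap in the other direction, at 12.7% and 13.3% against 14.4% and 14.5%. Cbx6, which like Cbx7 lies on chromosome 15, was covered at 13.5% and 11.5% against 14.9% and 14.2%. Peak bases on chromosomes 15 and 17 stood at 1.19 times the density of chromosomes 1 to 13 in the second HDAC7-deficient library. Cbx7 and Ring1, on those chromosomes, were lower in that library than in both wild-type libraries. By the same measure, each of chromosomes 14 to 19 was denser in that library than in any other library. Cbx6 and L3mbtl2, called higher, lie on chromosome 15, and Phf1, called lower, lies on chromosome 17. The shares of these genes were not corrected for the rise.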

How the data were processed

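hMeDIP-seq libraries of sorted pro-B cells were analysed, 2 per genotype. The 4 input samples carried no files and were not analysed here. Per the labels and the study's methods, the authors trimmed reads (Trim Galore 0.4.2, which ran Cutadapt, version 1.6), aligned them to mm10 (the methods name bwa, the submitters' processing notes Bowtie2) and called peaks in each library with MACS2 (bdgpeakcall at a cutoff of 250, joining over gaps of up to 10 bp and keeping peaks from 10 bp). Peaks that met input peaks were removed, and whether before deposit is not stated. The deposited files hold chromosome, start and end only, so read depth is unknown and precision rests on 2 libraries per genotype.

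Peaks meeting each window by at least 1 bp were counted, and covered bases summed, in Python 3.11.15 with NumPy 2.4.6. Genes came from GENCODE M21 and sequence from GRCm38.p6. Two-sided exact permutation tests compared genotypes. A gene was called lower or higher where both HDAC7-deficient values lay beyond both wild-type values. Named genes were all 10 members, plus further Polycomb genes. The further genes were named for a wide gap, a higher or lower call, their mean coverage, their chromosome or their library pattern. Other than those with the widest gaps, they were picked after values were seen. The interval code was tested on simulated data. The members and lists were chosen with earlier results of these data known. The tile width, the 70% limit and the start-site peaks named were chosen after values were seen.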

Additional observations from a re-analysis of the deposited data

How the results depend on the processing

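Over the 10 members, the ratio of peak bases between genotypes stayed between 0.911 and 0.990 under other flanks, a minimum peak width, scaling by library and chromosomes 1 to 13 alone, and ran from 0.881 to 1.05 when a library was left out, with the value above 1 when wild-type replicate 2 was dropped. The ratio of peak counts lay at 0.998 and passed 1 with flanks of 2000 bp (1.00) and 10000 bp (1.01), on chromosomes 1 to 13 (1.03) and with peaks within 100 bp merged (1.03), and ran from 0.932 to 1.06 with a library left out. With so few libraries no p could pass a threshold under any setting, and the smallest that the exact permutation test of 2 against 2 allows is 0.333. The replicate block, the geometric mean of the ratios within each replicate number, gave 0.963 for bases and 0.995 for counts, both on the same side of 1 as without it. It was run for these 2 ratios only and has no test. The labels tie the numbers to no litter or day, and deviations of same-numbered libraries correlated at 0.103 over 20807 genes, so the block has no further standing.

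The count of members above the median of genes of like length rose from 2 to 5 with flanks of 0 bp or 2000 bp, to 4 with peaks at least 200 bp wide and to 8 by the share of CpGs, and ran from 2 to 4 with a library left out, with 4 without wild-type replicate 1. The cause was not tested. Members lower in both HDAC7-deficient libraries fell from 2 to 1 after scaling by library (Ring1) and with no flank (Cbx7). They stayed at 2 elsewhere with different genes: Eed and Cbx7 with flanks of 10000 bp, and Suz12 and Ring1 with peaks at least 200 bp wide. Members higher in both stayed at 0. Coverage at the start sites was 9.68% over the 4 libraries, 9.61% at principal transcripts, 12.7% within 1000 bp and 5.18% with peaks at least 200 bp wide.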

Other observations

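The further list held 3 Polycomb genes on chromosome X. Rbbp7, a histone-binding subunit of PRC2, was covered at 2.71% and 3.43% in wild-type cells and 1.71% and 11.4% in HDAC7-deficient cells. Bcor, a scaffold of the variant PRC1 that holds Kdm2b, was covered at 6.65% and 6.37% against 3.83% and 9.55%, and Bcorl1 at 8.79% and 8.41% against 5.56% and 16.3%. In each of these genes the first HDAC7-deficient library gave the lowest value and the second the highest, as in the autosomal genes Scmh1 and Mtf2. In Phc1, also autosomal, the first gave the highest and the second the lowest. Peak density over all of chromosome X was not compared, so a difference across the chromosome cannot be told apart from one at these genes.

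Among autosomal genes of the complexes that are not members, Pcgf1, which pairs with Kdm2b in the variant PRC1, had the highest mean over the 4 libraries of the further list, at 10.7% and 16.3% in wild-type cells and 15.3% and 21.4% in HDAC7-deficient cells. Pcgf2, a Pcgf subunit of PRC1, was covered more than Pcgf1 in the other 3 libraries, at 13.5% and 16.9% in wild-type cells and 18.2% in the first HDAC7-deficient library. Rybp, a subunit of variant PRC1, had the lowest mean of the autosomal genes and was the lowest in the first wild-type library only, at 4.94% and 6.42% against 6.63% and 7.35%.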
